A study of Mus musculus with 6 samples.

Results

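EC1 was the larger of the endothelial clusters that the study's own annotation named in a droplet single-cell survey of the mouse olfactory bulb. It held 2524 of the 51426 annotated cells (4.91%), and its cells were taken by that annotation alone. Endothelial cells form the inner wall of blood vessels. In the brain they are joined by tight junctions and carry nutrient transporters and efflux pumps, which together make the blood-brain barrier. Along a vessel they change from arterial to capillary to venous, and they respond to blood flow, to growth factors such as VEGF and BMP, and to hormones that reach them from the blood, glucocorticoids among them. The olfactory bulb is the first relay of the sense of smell, and its input from the nose can be lowered by closing a nostril or enriched by odour training.

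Olfactory bulbs of C57BL/6NJ mice 14 weeks of age were dissociated, and 6 libraries were made with 3′ droplet chemistry, each from 3 pooled mice. The libraries form 3 groups of 2: control mice, naris-occluded mice and mice trained on an olfactory task, with 6 weeks of manipulation. Trained mice were also kept short of water and worked for water as a reward, per the study's methods, so training cannot be told apart from water deprivation and reward. The study describes the occlusion as a plug on 1 side, with the bulb of that side as the deprived sample and the open side as its control, while the labels give the control libraries as without manipulation. No transgene or allele is named for any group, the mice were pooled before capture, and the study describes the replicate 1 pools as male and the replicate 2 pools as female mice, so pool and sex cannot be told apart. Each group therefore has 2 pools, and p-values measure the spread between pools, except in 1 edgeR fit named where it is used. With so few pools edgeR shares this spread over genes. Its prior held a median of 19.7 degrees of freedom in the tests of conditions and 36.8 in that of cells within EC1. A gene's own pools therefore carry only part of this spread. EC1 cells numbered 460 and 437 under control conditions, 296 and 508 after occlusion and 494 and 329 after training. The EC1 cells of a library together held 611879 to 905535 unique molecular identifiers (UMIs, counted RNA molecules), and the median cell held 1621 UMIs (559 to 17689) and 962 genes. Levels are given as CPM, the UMIs of a gene scaled to 1000000 UMIs, counted from 3′ ends, so they are compared between cells and not between genes. In comparisons of conditions or of cells within EC1 the total is the UMIs of the tested genes alone. There the levels are further scaled by the trimmed mean factors (TMM) of edgeR, so they are not on the scale of the levels by cluster. Levels summed over all cells outside EC1 are scaled by TMM factors of their own, over all genes. Sums over lists and levels by cluster are CPM without these factors. No library repeated another: the chi-square per degree of freedom between pairs ran from 1.58 to 4.0, and trained replicate 1 stood apart from each of the others (3.01 to 4.0, against at most 2.65 in pairs without it). It also had the highest median mitochondrial share of EC1 cells, 9.47%. Of the EC1 cells, 138 (5.47%) had a barcode that also occurred in another library, and for 6 of them the other cell was an EC1 cell as well.

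**Figure D1:**
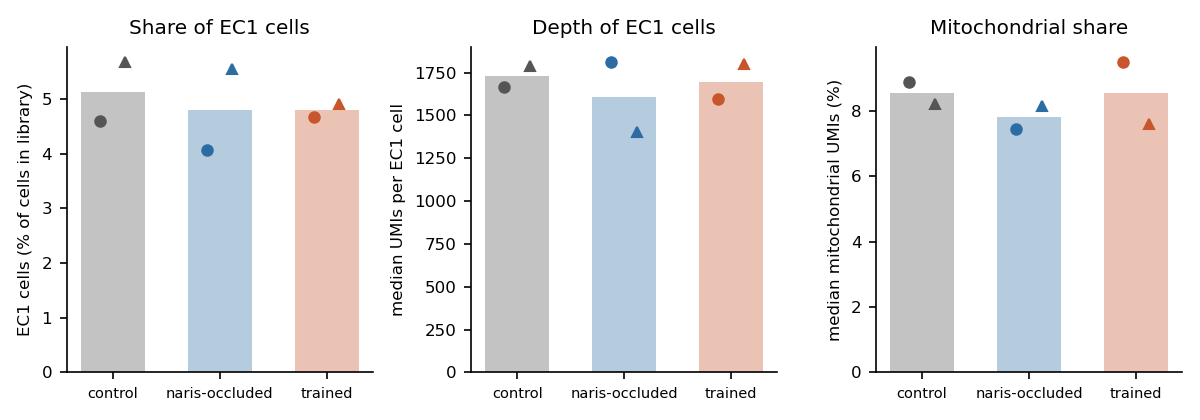
EC1 cells as a percentage of the annotated cells of each library, median UMIs per EC1 cell and median mitochondrial percentage of EC1 cells, by group. Bars are means of 2 libraries, circles are replicate 1 and triangles replicate 2. The shares of the groups overlap, and the lowest share is the 4.06% of occluded replicate 1.

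The cluster was described by markers, of which the study itself used Slco1c1 to name its endothelial clusters, so this is no check of the label. Slco1c1 (mm10 chromosome 6, 141524354 to 141570177), which encodes the thyroxine transporter Oatp1c1 of the barrier, stood at 901 ± 34.2 CPM in EC1 (mean ± SD, n = 6 libraries). Its level was 519 ± 64.4 in EC2, the other endothelial cluster, 508 ± 91.4 in Mural1 and 25.6 ± 18.4 in Mural2, the clusters of cells that wrap vessels. Cldn5 (chromosome 16, 18776847 to 18778262), which encodes the main tight junction protein of brain endothelium, stood at 7156 ± 907 in EC1 and 3264 ± 764 in EC2, and the highest of the other clusters was the ensheathing cluster OEC1 with 3630.5 ± 304. Both genes were higher in EC1 than in any of the other clusters in 6 of 6 libraries. Since clusters were formed on these same cells, such differences describe EC1 and are not tested.

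Cldn5 was found in 99.8% of EC1 cells and Slco1c1 in 74.2%. In EC2 the shares were 79.0% and 36.7%. In N8, the largest neuronal cluster with 3335 cells of a median 879 UMIs, they were 6.60% and 0.99%. The part of free RNA in the shares of N8 was not tested. EC2 cells were shallower, with a median of 750.5 UMIs. After every cell was thinned to 500 UMIs, Cldn5 was found in 94.7% of EC1, 66.5% of EC2 and 3.598% of N8 cells, and Slco1c1 in 37.0%, 23.6% and 0.45%.

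The 17 genes of an endothelial marker list added up to 33793 ± 2399 CPM in EC1, 15747 ± 1447 in EC2, 18816 ± 984 in Mural1 and 1295 ± 185 in Mural2. All 17 had a higher mean in EC1 than in any other cluster, and for 15 of them this held in each of the 6 libraries. Most of the 17, Slco1c1 and Cldn5 among them, are also in the study's own EC1 marker table. That table was chosen on these cells, so the sum describes EC1 and is no independent check of its label. Markers of other cells were low but not absent. The 9 pericyte genes summed to 641 ± 51.0 in EC1 against 22918 ± 2855 in Mural2, the 5 smooth muscle genes to 72.9 ± 18.5 against 5581 ± 1108, with Cnn1 at 0 in EC1, and the 6 fibroblast genes to 9.70 ± 5.04. Ensheathing glia genes summed to 1334 ± 244 in EC1 and 10138 ± 2830 in EC2, astrocyte genes to 452 ± 48.5 and 2503 ± 345, oligodendrocyte genes to 939.5 ± 109 and 2163 ± 495, neuronal genes to 907 ± 186 and 1821 ± 450.4, and microglial genes to 187 ± 66.7 and 342 ± 170.2. Red blood cell genes varied by library, from 849 CPM in control replicate 2 to 11888 in occluded replicate 1, with 8231 in trained replicate 2. EC2 also held more mitochondrial RNA, with a median of 17.1% against 8.38% in EC1, and 76.7% of its cells had under 1000 UMIs against 15.7%. The part of depth and of neighbouring cells' RNA in the lower endothelial levels of EC2 was not tested.

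**Figure D2:**
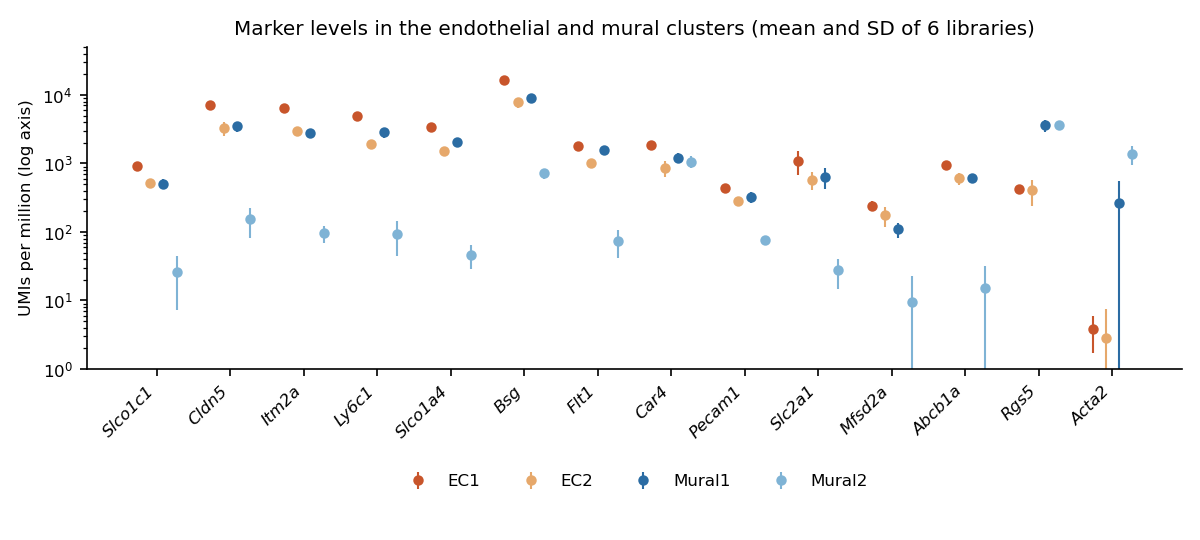
Levels of 12 endothelial and barrier genes, of the pericyte gene Rgs5 and of the smooth muscle gene Acta2 in the endothelial and mural clusters, in CPM (UMIs per 1000000) on a log axis. Points are means and bars SDs of 6 libraries, and bars that would pass 1 stop there. EC1 lies above EC2 for the endothelial genes, and Acta2 is at 3.78 ± 2.07 in EC1 against 1374 ± 437 in Mural2.

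Genes of the blood-brain barrier were high in EC1. Of 32 barrier transporter genes, 22 had their highest mean of all clusters in EC1, 14 of them in each of the 6 libraries, and 28 were higher in EC1 than in EC2. Of the 16399 genes with a UMI in EC1 or EC2, 4.24% had their highest mean in EC1, 0.854% were highest there in each library and 52.3% were higher in EC1 than in EC2. Slco1a4, an organic anion transporter, stood at 3386 ± 107 CPM in EC1 and 1528 ± 215 in EC2. Abcb1a, which encodes the efflux pump P-glycoprotein, stood at 961 ± 20.8 and 607 ± 119, and its 6 EC1 libraries lay within 926 to 987. Slc2a1, the glucose transporter of the barrier, varied more, from 703 to 1783 in EC1. Mfsd2a, a lipid transporter that keeps vesicle transport low, stood at 241 ± 40.7, and Tfrc, the transferrin receptor, at 392 ± 40.6. One exception was Slc6a9, a glycine transporter, at 8.16 ± 3.05 against 454 ± 25.0 in Astro1.

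Of 18 junction genes, 17 were in the table, and 7 had their highest mean in EC1. Besides Cldn5 these included the junction proteins Ocln (262 ± 29.3 in EC1 and 130.4 ± 43.7 in EC2), Cdh5 (354 ± 29.4 and 185 ± 27.8), Esam (701 ± 48.3 and 287 ± 69.3) and Lsr (348 ± 46.5 and 151 ± 34.5), each first in 6 of 6 libraries. Cldn12, another claudin, stood at 9.83 ± 2.67 in EC1 and at 77.4 ± 10.8 in N8. Cgn, which encodes cingulin, had no UMI in the 2524 EC1 cells, which allows a share of up to 0.119% of cells with a UMI, while its relative Cgnl1 stood at 149.9 ± 14.9. Plvap, a marker of leaky fenestrated vessels, had 16 UMIs in all of EC1 (3.20 ± 2.13 CPM). Wnt signalling builds and keeps the barrier, and 9 of the 20 measured genes of that list had their highest mean in EC1, with Lef1, a transcription factor of the pathway, at 428 ± 26.4 and 213 ± 89.7 in EC2 and Nkd1, an inhibitor that the pathway itself induces, at 457 ± 46.6 and 271 ± 18.8. Of 15 capillary genes 13 were highest in EC1, while of 26 arterial genes 1 was and of 23 measured venous genes 7.

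The 50 genes that the study's marker table gives for EC1 were chosen on these cells and are no independent evidence. Members of the lists above are among them, such as the transporter Slco1a4, the junction gene Esam and the capillary gene Car4. The counts over those lists are therefore not independent of that table. All 50 were higher in EC1 than in EC2, and 36 were highest in EC1 in each of the 6 libraries. Among them were Bsg (16548 ± 2126 CPM), which encodes basigin, a partner of lactate transporters, Itm2a (6430.0 ± 553), Ly6c1 (4889 ± 587), a surface protein of mouse endothelium, and Flt1 (1813 ± 155), a VEGF receptor. Mural1 had 1561 of Flt1, close to EC1, and its 158 cells carried both endothelial and pericyte genes.

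Receptors through which vessels read growth factors and flow were read in the same way. Of 16 VEGF and angiopoietin genes 9 had their highest mean there, with the VEGF receptor Kdr at 312 ± 57.0 CPM against 194 ± 62.8 in EC2, and the angiopoietin receptors Tek at 278 ± 24.6 and 154 ± 30.8 and Tie1 at 184 ± 24.1 and 100.4 ± 17.3. Of 13 flow-responsive genes 8 were highest in EC1 and all 13 exceeded EC2, with Klf2 at 1817 ± 509 and Nos3, the endothelial nitric oxide synthase, at 101 ± 18.4. Of 19 BMP and TGF-beta genes 7 were highest in EC1, among them Id1 (1599.9 ± 489 and 427 ± 102) and Id3 (1822 ± 273 and 847 ± 208). Of 13 Notch genes 2 were, of 19 basement membrane genes 4, of 26 interferon and antigen presentation genes 4, of 15 heat shock genes 1 and of 19 clock genes 0. Col4a1, a collagen of the basement membrane, stood at 242 ± 32.6 in EC1 and 356 ± 83.5 in Mural1.

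EC1 was not uniform: cells with arterial and cells with venous anchor genes could be told from each other. Cells were sorted by 6 anchor genes, with Gkn3, Bmx and Sema3g marking the arterial end and Slc38a5, Nr2f2 and Ackr1 the venous end. Cells with a UMI of an arterial anchor alone numbered 296 (11.7%, median 1884 UMIs), and those with a venous anchor alone 759 (30.1%, median 1839 UMIs). Both kinds of anchor were seen in 28 cells and neither in 1441 (57.1%, median 1500 UMIs), so the absence of an anchor says little about a cell of this depth. The arterial share ran from 9.72% to 15.2% and the venous share from 25.0% to 35.7% over the 6 libraries, with no comparison between conditions. UMIs were summed per library and class and compared between classes within libraries by edgeR's quasi-likelihood test with Benjamini-Hochberg adjustment. The anchor genes were left out of the test. Its prior held a median of 36.8 degrees of freedom, so its p-values rest largely on spread shared over genes. The classes are named for their anchors only, and the venous class did not separate capillary from venous cells, since most capillary genes tested were also higher in it. Of 2534 genes tested, 428 (16.9%) passed an adjusted p of 0.05, with 223 (8.8%) higher in arterial and 205 (8.09%) higher in venous cells.

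On the arterial side, Mgp, an inhibitor of BMP signalling and of calcification in arteries (chromosome 6, 136872435 to 136875823), had a median of 654 (range 464 to 854) CPM in arterial and 39.7 (range 10.5 to 72.8) in venous cells over the 6 libraries. The classes did not overlap (log2 difference 4.14 ± 0.19, adjusted p = 1.7e-21). Alpl, an alkaline phosphatase, had 284 (range 130.3 to 394) and 19.7 (range 3.51 to 24.1) (log2 difference 4.09 ± 0.28, adjusted p = 1.19e-15), and Hey1, a target of the Notch pathway that sets arterial identity, 240.4 (range 138 to 421) and 17.0 (range 14.1 to 33.1) (log2 difference 3.74 ± 0.26, adjusted p = 2.1e-15). Edn1, which encodes the vessel-constricting peptide endothelin-1, had 498 (range 414 to 690.2) and 103 (range 59.6 to 143) (log2 difference 2.32 ± 0.16, adjusted p = 7.66e-16). Of the 26 genes of an arterial list, anchors included, 12 were tested. Of these 11 were higher in arterial cells and 1, the VEGF co-receptor Nrp1, was lower (-0.96). A gene passed the low-count filter when 1 class alone was high enough, as with Hey1 and Alpl. The filter thus favours genes that are high in the class a list names, and the count is no support for that list. Others of the largest differences were Tmem100, a target of BMP signals in arteries (3.56), and Stmn2, a regulator of microtubules (3.21).

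In the class with venous anchors, Car4, a carbonic anhydrase on the capillary surface (chromosome 11, 84957754 to 84966054), had 234 (range 163 to 289.6) in arterial and 3237 (range 2233 to 3462) in venous cells (log2 difference -3.70 ± 0.12, adjusted p = 2.4e-27). Tmsb10, an actin-binding peptide, had 549 (range 492 to 633) and 6454 (range 5349 to 6965) (log2 difference -3.51 ± 0.08, adjusted p = 2.9e-32). For both genes the venous class was higher in 6 of 6 libraries. Flrt2, a cell adhesion protein, had a log2 difference of -3.85. Gm9844, a pseudogene on chromosome 7 whose reads may come from near-identical copies, was also higher in venous cells (-4.11), and its value is uncertain. Of 23 measured genes of a venous list, anchors included, 10 were tested under the same filter. Of these 5 were higher in venous cells and none was higher in arterial cells, with a median log2 difference of -0.74. Of 15 capillary genes 12, Car4, Slc22a8 and Tfrc among them, were higher in the venous and 2 in the arterial class, with a median of -0.77.

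Barrier transporters differed along this axis. Of 25 tested under the same low-count filter, 14 were higher in the venous class and 2, Slc6a6 and Slc2a1, in the arterial class. Slc22a8, an organic anion transporter, had 169 (range 87.7 to 236) CPM in arterial and 599 (range 392 to 681) in venous cells (log2 difference -1.75 ± 0.15, adjusted p = 8.63e-13), Tfrc 216 (range 100.2 to 261) and 583 (range 488 to 706) (log2 difference -1.60 ± 0.15, adjusted p = 8.23e-12), and Slc7a5, the large neutral amino acid transporter, 259 (range 225 to 550.2) and 789.6 (range 684 to 1079) (log2 difference -1.36 ± 0.13, adjusted p = 7.29e-12). Junction genes split evenly, with 3 of 12 higher and 3 lower in arterial cells. Cldn5 was among the lower with a small difference of -0.16 (adjusted p = 0.0339), a call that 3 of 11 alternative settings kept. The marker Slco1c1 did not pass (log2 difference 0.25 ± 0.10, adjusted p = 0.0883), nor did Bsg (log2 difference 0.03 ± 0.04, adjusted p = 0.742).

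Signalling lists were read in the same way. The low-count filter admits genes that are high in a single class here too, Hey1 among them, so these counts are no support for a list. Of 10 tested BMP and TGF-beta genes, 8 were higher in the arterial class and none was lower, among them the ligand Tgfb2 (1.84), the inhibitor Smad7 (0.83), the receptor Tgfbr2 (0.68) and the co-receptor Eng (0.56), each a log2 difference. Of 5 Notch genes, 3 were higher (Hey1, the ligand Jag1 with 1.16 and the receptor Notch4 with 0.89), and of 12 flow-responsive genes 7 were higher, including Klf2 (0.38) and Klf4 (0.52), transcription factors that shear stress induces, while 2 were lower. Of 16 early response genes 10 were higher and 2 lower, and of 17 interferon and antigen presentation genes 7 were higher, with Irf7, a regulator of the interferon response, at 1.41 and Ifitm3, an antiviral membrane protein, at 0.73. The surface protein Ly6c1 had 9032 (range 7904 to 10751) in arterial and 4685 (range 4004 to 5248) in venous cells (log2 difference 0.97 ± 0.06, adjusted p = 1.33e-17), and the metallothionein Mt2, a metal-binding protein, 472 (range 429 to 680.5) and 1118 (range 985 to 1393) (log2 difference -1.20 ± 0.11, adjusted p = 8.48e-12). The median log2 difference over all 2534 genes was -0.00499. Pericyte genes summed to 756 to 1192 CPM in the arterial and 394 to 856 in the venous classes, and smooth muscle genes to 65.9 to 184 and 22.3 to 100.2, and the part of mural cells' RNA in these differences was not tested. Ensheathing glia genes summed to 676 to 1084 in the arterial and 919 to 2211 in the venous classes.

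**Figure D3:**
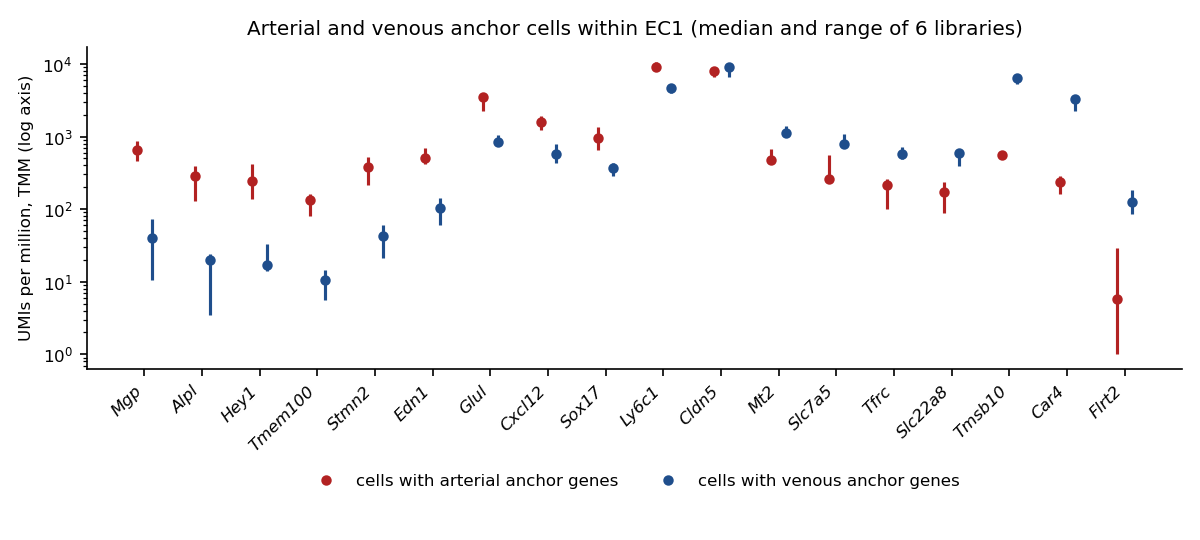
Levels of 18 genes in EC1 cells with arterial (red) or venous (blue) anchor genes, in TMM-scaled CPM on a log axis. Points are medians and lines the ranges of 6 libraries, with values under 1 drawn at 1. From Mgp to Ly6c1 the arterial range lies above the venous one, the ranges of Cldn5 overlap, and from Mt2 to Flrt2 the venous range lies above.

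The number of EC1 cells did not differ detectably between conditions. EC1 made up 4.60% and 5.67% of annotated cells under control conditions, 4.06% and 5.55% after occlusion and 4.67% and 4.91% after training. Tested over all 38 clusters with edgeR's quasi-likelihood test, the log2 difference was -0.09 ± 0.28 (SE, adjusted p = 0.869) for occlusion against control, -0.10 ± 0.28 (adjusted p = 0.808) for training against control and -0.01 ± 0.28 (adjusted p = 0.982) for training against occlusion. EC1 made up 65.9% and 67.9% of the endothelial cells of EC1 and EC2 in control, 71.2% and 70.2% in occluded and 66.8% and 77.0% in trained libraries. The occluded libraries did not overlap the control libraries (exact permutation test, two-sided p = 0.333, the smallest that 2 against 2 libraries can give). The median mitochondrial share of EC1 cells was 8.88% and 8.20% in control, 7.44% and 8.14% in occluded and 9.47% and 7.59% in trained libraries.

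The comparison of occluded with control mice asks how cells of the bulb change when sensory input is reduced on 1 side. In EC1 cells, of 8665 genes tested, 2 (0.0231%) were lower and none was higher in the fit over all 6 libraries (edgeR's quasi-likelihood test, adjusted p under 0.05), while 192 were higher and 212 lower at an unadjusted p under 0.05. DESeq2 called none, and 4 genes passed with the replicate number, and with it the sex of the pools, as a block. Of the barrier lists, 0 of 29 transporter and 0 of 14 junction genes passed. Slco1c1 stood at 901 and 949 CPM in control, 949.8 and 933 in occluded and 889 and 906 in trained libraries, and all 6 libraries lay close together (log2 difference 0.03 ± 0.12 (SE), adjusted p = 0.997). Cldn5 stood at 7198 and 7609 in control, 8284 and 7424 in occluded and 5746 and 7573 in trained libraries (log2 difference 0.09 ± 0.10 (SE), adjusted p = 0.997).

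Ccnd1, which encodes cyclin D1, a driver of entry into the cell cycle (chromosome 7, 144929931 to 144939831), stood at 83.3 and 66.4 CPM in control, 29.7 and 6.51 in occluded and 46.6 and 41.9 in trained libraries. Both occluded libraries were below both controls, and the log2 difference was -2.14 ± 0.36 (SE), adjusted p = 0.021 by edgeR. In the cells outside EC1 the level was 30.8 and 31.1 in control and 31.5 and 27.2 in occluded libraries. Taken within each library and compared between groups, the effect in EC1 minus that in the other cells was -2.35 ± 0.55 (SE, unadjusted p = 0.00233, adjusted p = 0.955, limma) and did not pass. In EC2 the difference was -1.31 ± 0.50 and did not pass (adjusted p = 0.565). The second gene, S100a5, a calcium-binding protein of olfactory sensory neurons (chromosome 3, 90606480 to 90611784), stood at 717 and 563 in control, 280.3 and 145 in occluded and 650.2 and 360.0 in trained libraries (log2 difference -1.61 ± 0.24 (SE), adjusted p = 0.00891). Outside EC1 its log2 difference was -1.78 ± 0.38 (adjusted p = 0.552), and those cells held 1307 and 1249 CPM in control and 536 and 207 in occluded libraries. The 4 sensory neuron markers together summed in EC1 to 1163 and 951 in control, 673 and 499 in occluded and 1116 and 685 in trained libraries, and the part of free RNA in the difference of S100a5 was not tested.

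The next 3 genes by p did not pass. They were Lcn2, a secreted iron carrier induced in inflamed vessels (-2.65, adjusted p = 0.0754), Apln, the ligand of the apelin receptor made by sprouting tip cells (-4.71, adjusted p = 0.239), and Fam101b, a regulator of actin (-0.79, adjusted p = 0.248). Apln stood at 69.8 and 13.3 CPM in control, 3.30 and 0 in occluded and 28.7 and 3.10 in trained libraries, and it also fell in replicate 2 against replicate 1 pools. Angpt2, the ligand that loosens vessels for sprouting, stood at 27.0 and 24.1 in control, 6.60 and 5.21 in occluded and 27.5 and 24.8 in trained libraries and did not pass (adjusted p = 0.256). The 6 tested genes of angiogenesis and cell division had a median log2 difference of -0.97, against -0.000619 over all genes, with 0 called and 4 lower and none higher at an unadjusted p under 0.05, and the other 10 list genes in the table were too low to be tested. Of all 8665 genes 4.66% reached that level in either direction. In the 18 basement membrane genes the median was -0.32 with 7 lower and 2 higher at that level, and in the 14 leukocyte adhesion genes it was -0.28 with 5 lower and none higher, again with 0 called. Both calls were lost without control replicate 1 or without occluded replicate 2, and they held without trained replicate 1, where 19 genes passed, without trained replicate 2, where 18 did, and without control replicate 2, where 4 did. They were also lost among cells with at least 1000 UMIs.

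The comparison of trained with control mice asks what a rise in olfactory activity changes, with water deprivation and reward part of the same treatment. In EC1 cells 25 genes (0.289% of 8665 tested) were higher and 4 (0.0462%) lower after training, 29 in all (0.335%), by edgeR's quasi-likelihood test, while 443 were higher and 333 lower at an unadjusted p under 0.05. In all 25 both trained libraries lay above the 4 other libraries. The genes were called on these same values, so this describes them and is no added support. Trained replicate 1 was higher than trained replicate 2 in all 25 after TMM scaling and in 23 of 25 in CPM without it. The share of all tested genes with either order was not counted. Genes known to respond to glucocorticoids, heat shock proteins, targets of BMP signalling, early response genes and the glucose transporter were among them.

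Tsc22d3, also called GILZ, a glucocorticoid-induced leucine zipper protein that damps inflammation (chromosome X, 140539528 to 140600522), stood at 171 and 158 CPM in control, 228 and 239.6 in occluded and 801 and 431 in trained libraries. Both trained libraries were far above the rest, and Tsc22d3 stood at 3.76 times its control level in the fit (log2 difference 1.91 ± 0.20 (SE), adjusted p = 2.45e-05). It passed in 15 of 15 alternative settings. Its log2 difference was 1.52 ± 0.30 in EC2 (adjusted p = 0.0145) and 0.63 ± 0.17 in all cells outside EC1. The effect in EC1 minus that in those cells, taken within libraries, was 1.24 ± 0.17 (SE, unadjusted p = 7.19e-05, adjusted p = 0.327, limma) and did not pass. Of 27 genes of a glucocorticoid-responsive list, 20 were tested, 4 were higher and 1 was lower, and their median log2 difference was 0.43 against 0.00278 over all genes. The other higher members were low or variable. Map3k6, a stress-activated kinase, stood at 5.63 and 8.45 in control, 4.95 and 5.21 in occluded and 41.8 and 23.3 in trained libraries (2.23 ± 0.46 (SE), adjusted p = 0.0361), a low level in every library. Cdkn1a, the cell cycle inhibitor p21, stood at 171 and 199 in control, 188 and 224 in occluded and 539 and 281 in trained libraries (1.16 ± 0.21 (SE), adjusted p = 0.0156), and its trained replicate 2 was nearer to the other libraries than to trained replicate 1. Sult1a1, a sulfotransferase, stood at 19.1 and 30.2 in control, 31.3 and 20.8 in occluded and 71.7 and 52.8 in trained libraries (1.36 ± 0.30 (SE), adjusted p = 0.0446).

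Other members of that list did not pass. Sgk1, a kinase that glucocorticoids induce, stood at 120.5 and 103 CPM in control, 112 and 74.2 in occluded and 215 and 159.8 in trained libraries (log2 difference 0.76 ± 0.18 (SE), adjusted p = 0.082). Zbtb16, a transcription factor, stood at 4.50 and 2.41 in control, 4.95 and 1.30 in occluded and 32.3 and 13.97 in trained libraries (2.72 ± 0.64 (SE), adjusted p = 0.0707). The metallothionein Mt1 had 2236 and 2389.6 in control, 2343 and 2729 in occluded and 2404 and 2388 in trained libraries, with no difference beyond the spread (0.05 ± 0.10 (SE), adjusted p = 0.937). The lower member, Lcn2 (chromosome 2, 32384637 to 32387739), stood at 105 and 32.6 in control, 11.5 and 10.4 in occluded and 20.3 and 6.21 in trained libraries (-2.29 ± 0.47 (SE), adjusted p = 0.0343), and control replicate 1 was the highest of the 6 by far.

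Promoters of the raised genes were searched for the letters to which the glucocorticoid receptor is known to bind, GNACA and TGTNC separated by 3 bases of any kind, on both strands of windows from 250 bases before to 50 after each start (RefSeq, GRCm38.p6, the build of the files). The motif was chosen after the values were seen. It occurred in 156 of 32851 windows (0.475%). Of the 20 raised genes with a window it occurred in 1, Map3k6, and of the 22 genes of the glucocorticoid list with a window in 4, Map3k6, Mt1, Sgk1 and Txnip. The heat shock element, searched as 3 units GAA and TTC that alternate at steps of 2 bases of any kind, occurred in 198 windows (0.603%), in 0 of the 20 raised genes and in 3 of 12 heat shock genes with a window. A match is a description of the letters and no site of binding. The windows of Map3k6 (chr4:133240568-133240867, plus strand) and Sgk1 (chr10:21993640-21993939, plus strand) are shown as examples, with the motif in capitals. They were picked from the 4 genes of that list that hold it. Of the examples, Map3k6 is a raised gene, while Sgk1 did not pass against control. The windows of Mt1, which did not pass against control either, and of Txnip are not shown.

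Map3k6: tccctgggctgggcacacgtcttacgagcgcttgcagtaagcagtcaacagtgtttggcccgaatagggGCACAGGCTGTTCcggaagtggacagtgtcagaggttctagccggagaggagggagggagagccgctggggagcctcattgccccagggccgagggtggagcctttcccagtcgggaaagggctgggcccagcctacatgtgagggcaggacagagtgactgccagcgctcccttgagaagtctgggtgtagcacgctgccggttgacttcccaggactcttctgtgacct

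Sgk1: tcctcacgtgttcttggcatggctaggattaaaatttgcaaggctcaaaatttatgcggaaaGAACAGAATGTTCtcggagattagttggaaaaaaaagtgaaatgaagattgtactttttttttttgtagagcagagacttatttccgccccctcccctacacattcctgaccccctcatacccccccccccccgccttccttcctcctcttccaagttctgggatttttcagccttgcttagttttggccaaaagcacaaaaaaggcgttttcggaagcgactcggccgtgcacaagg

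Heat shock proteins, the chaperones that refold proteins, mostly had positive differences. Of 15 genes 14 were tested, 2 were higher and none lower, and the median log2 difference was 0.50, with 13 of 14 above 0 and 8 at an unadjusted p under 0.05, a level that 8.96% of all 8665 genes reached. Hspa8, a chaperone that all cells make (chromosome 9, 40801276 to 40805202), stood at 609 and 850.1 CPM in control, 579 and 835 in occluded and 1990.0 and 1148 in trained libraries (log2 difference 1.11 ± 0.20 (SE), adjusted p = 0.0156). Its log2 difference was 1.01 ± 0.19 in EC2 and 0.63 ± 0.16 in the cells outside EC1. Dnaja1, a partner of Hspa8, stood at 226 and 281 in control, 241 and 310.0 in occluded and 529 and 391 in trained libraries (0.86 ± 0.17 (SE), adjusted p = 0.029). Inducible members that did not pass were high in trained replicate 1 alone: Hspa1a stood at 20.3 and 13.3 in control, 18.1 and 23.4 in occluded and 108 and 20.2 in trained libraries (1.99 ± 0.48 (SE), adjusted p = 0.0819), and Hsph1 at 14.6 and 24.1 in control, 13.2 and 22.1 in occluded and 83.7 and 27.9 in trained libraries (1.59 ± 0.40 (SE), adjusted p = 0.0989).

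Among BMP and TGF-beta genes, 3 of 15 tested were higher and none lower. Id1 and Id3 are inhibitors of differentiation that BMP signals switch on in endothelium. Id1 stood at 1464 and 1323 CPM in control, 1263 and 1227 in occluded and 2497 and 2064 in trained libraries (log2 difference 0.71 ± 0.12 (SE), adjusted p = 0.00911), and Id3 at 1616 and 1583 in control, 1763 and 1763 in occluded and 2235 and 2222 in trained libraries (0.48 ± 0.11 (SE), adjusted p = 0.0466), a smaller step. Smad7, which closes the same pathway down, stood at 49.5 and 54.3 in control, 41.2 and 35.2 in occluded and 104 and 102 in trained libraries (0.99 ± 0.20 (SE), adjusted p = 0.032), and for it the trained replicates were nearly equal. Of 13 flow-responsive and 24 early response genes, 1 and 2 were higher, with Klf4 in both lists. Klf4 (chromosome 4, 55527137 to 55532475) stood at 284 and 270.5 in control, 261 and 281 in occluded and 686 and 507 in trained libraries (1.11 ± 0.16 (SE), adjusted p = 0.000952) and passed in 14 of 15 alternatives. Maff, a small transcription factor, stood at 15.8 and 9.66 in control, 6.60 and 6.51 in occluded and 56.2 and 31.0 in trained libraries (1.79 ± 0.38 (SE), adjusted p = 0.0393). Klf2, which flow also induces, did not pass, with 1359 and 1609.5 in control, 1308 and 2135 in occluded and 2737 and 2027 in trained libraries (0.68 ± 0.17 (SE), adjusted p = 0.0819).

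Of 29 tested barrier transporters 2 were higher and none lower, and of 14 junction genes none passed. Slc2a1 (chromosome 4, 119108745 to 119137330), through which glucose enters the brain, stood at 878 and 1014 CPM in control, 857 and 719 in occluded and 1868 and 1369 in trained libraries (log2 difference 0.78 ± 0.14 (SE), adjusted p = 0.0193). Both trained libraries exceeded the rest, as they did for Atp10a, a lipid flippase, with 98.0 and 119.5 in control, 142 and 126 in occluded and 209 and 197 in trained libraries (0.91 ± 0.16 (SE), adjusted p = 0.0156). Abcb1a stood at 975 and 979 in control, 984 and 947 in occluded and 1034 and 975 in trained libraries (0.04 ± 0.12 (SE), adjusted p = 0.969) and the tight junction gene Ocln at 231 and 269 in control, 228 and 289 in occluded and 306 and 286 in trained libraries (0.24 ± 0.16 (SE), adjusted p = 0.707). Slco1c1 and Cldn5 did not pass either (-0.04 ± 0.12 (SE), adjusted p = 0.964 and -0.15 ± 0.10 (SE), adjusted p = 0.711), and for Cldn5 the lowest of the 6 libraries was trained replicate 1.

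Plat, which encodes tissue plasminogen activator, the protease that dissolves clots (chromosome 8, 22757722 to 22782848), stood at 215 and 229 CPM in control, 254 and 313 in occluded and 545 and 442 in trained libraries (log2 difference 1.15 ± 0.16 (SE), adjusted p = 0.000806). Its log2 difference was -0.13 ± 0.09 outside EC1, and the gene passed in 14 of 15 alternatives. The effect in EC1 minus that in the other cells was 1.29 ± 0.16 (SE, unadjusted p = 2.85e-05, adjusted p = 0.326, limma) and did not pass. Igfbp3, which binds insulin-like growth factors, stood at 7.88 and 8.45 in control, 8.24 and 7.81 in occluded and 35.9 and 32.6 in trained libraries (2.05 ± 0.41 (SE), adjusted p = 0.029), and the 4 other libraries lay at or below 8.45. Plxna2, a semaphorin receptor, stood at 30.4 and 43.5 in control, 42.9 and 48.2 in occluded and 133 and 66.7 in trained libraries (1.47 ± 0.28 (SE), adjusted p = 0.0193). Myrip, a motor adaptor of secretory granules, stood at 13.5 and 18.1 in control, 19.8 and 28.7 in occluded and 52.6 and 38.8 in trained libraries (1.55 ± 0.34 (SE), adjusted p = 0.0446). The remaining raised genes had log2 differences from 0.70 to 1.11: Ccdc85a, Bcl2l1, Skil, Gch1, Mal, Irf2bpl, Dusp6 and Serinc3.

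Besides Lcn2, 3 genes were lower after training. Nrp1, a co-receptor for VEGF and semaphorins (chromosome 8, 128358591 to 128505476), stood at 340.0 and 302 CPM in control, 218 and 204 in occluded and 197 and 203 in trained libraries (log2 difference -0.68 ± 0.15 (SE), adjusted p = 0.0446), and the occluded libraries were as low as the trained ones. Kdr, the main VEGF receptor, did not pass (-0.42 ± 0.15 (SE), adjusted p = 0.385), and Nrp1 was the 1 called gene among 14 VEGF and angiopoietin genes tested. Cirbp, a cold-inducible RNA-binding protein, stood at 209 and 184 in control, 242 and 229 in occluded and 108 and 126 in trained libraries (-0.76 ± 0.16 (SE), adjusted p = 0.0388), and 8430408G22Rik at 105 and 95.4 in control, 117 and 96.4 in occluded and 49.0 and 49.7 in trained libraries (-1.02 ± 0.20 (SE), adjusted p = 0.029).

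In other lists no gene passed: 0 of 19 tested Wnt genes (median 0.14), 0 of 10 Notch genes (0.36), 0 of 15 capillary genes (-0.10), 0 of 12 clock genes (0.58), 0 of 26 interferon genes (-0.22), 0 of 18 basement membrane genes (-0.04), 0 of 6 caveolar genes (0.19), 0 of 12 vessel tone genes (0.01), 0 of 6 angiogenesis genes (-0.03) and 0 of 14 lipid genes (-0.08), each median a log2 difference. Slc2a1 was the 1 of 14 hypoxia genes that passed, and Lcn2 was the 1 called gene of 14 leukocyte adhesion and of 19 venous genes. Of the study's 50 EC1 markers, 2 were higher, Slc2a1 and Id1.

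The count of calls moved with single libraries. Leaving out a library of a group leaves that group with 1, which the fit assumes to vary like the libraries of the other groups. Without trained replicate 1, 27 genes passed, but 9 of the 29 were among them, Tsc22d3, Plat, Klf4, Id1, Id3, Hspa8, Mal, Atp10a and Lcn2, and Map3k6, for one, had an adjusted p of 0.662. Without trained replicate 2 the count was 224, without control replicate 1 it was 1 and without control replicate 2 it was 8. DESeq2 called 6 of the 29, a fit to the control and trained libraries alone 3 and the cells with at least 1000 UMIs 5. All 29 kept their direction in each of the 15 alternatives.

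**Figure D4:**
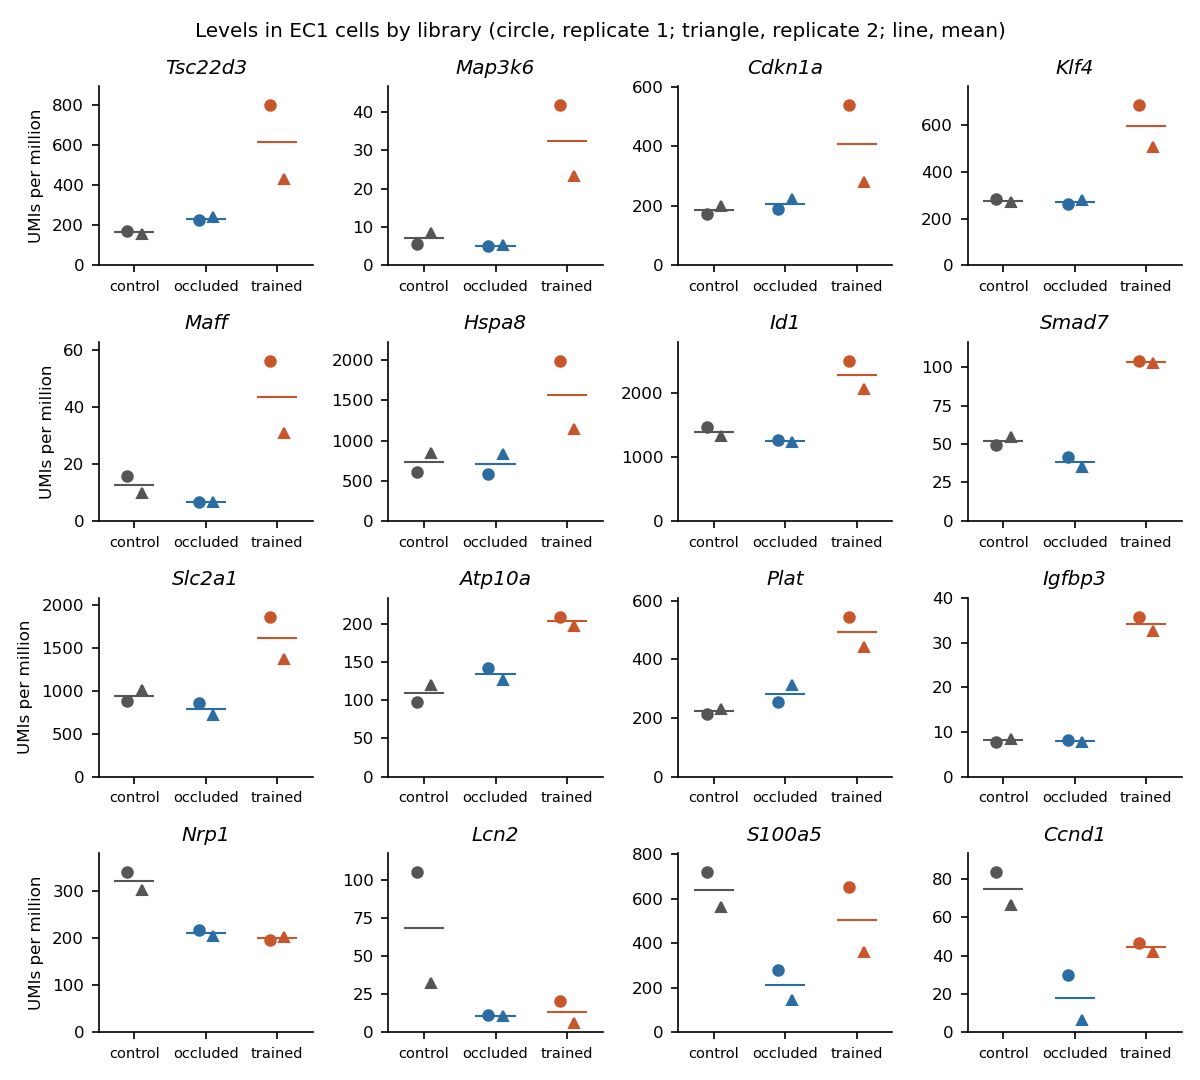
Levels of 16 genes in EC1 cells in TMM-scaled CPM, by library. Circles are replicate 1, triangles replicate 2 and lines the means of 2 libraries, and each axis starts at 0. From Tsc22d3 to Igfbp3 both trained libraries lie above the 4 others, Nrp1 and Lcn2 are highest in control, and S100a5 and Ccnd1 are lowest in occluded libraries.

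The same genes were read in other cells of the same libraries. Of the 25 raised genes, 17 were tested in EC2, 16 of these had a positive log2 difference there, and 2 passed, Tsc22d3 and Hspa8, the only genes called of 4085 tested in EC2 by edgeR (235 at an unadjusted p under 0.05). In all cells outside EC1, 20 of 25 had a positive log2 difference and none of the 25 passed, with 1 gene called of 15538 there (1325 at an unadjusted p under 0.05). The median log2 difference of the 25 was 0.99 in EC1, where they were chosen, 0.71 in EC2 for those tested and 0.20 in the other cells. Whether effects differed between EC1 and the other cells was tested over all 14556 genes. The difference taken within each library and compared between groups with limma passed for 0 genes in both comparisons, with 679 at an unadjusted p under 0.05 for occlusion and 862 for training. An interaction term of edgeR called 8 (0.055%) for occlusion, 6 higher (0.0412%) and 2 lower (0.0137%) in EC1, and 46 (0.316%) for training, 41 higher (0.282%) and 5 lower (0.0344%). That fit gave its prior infinite degrees of freedom, so its p-values hold no gene's own spread between pools. Genes of such a fit are named only in the last section, where settings of the processing are compared. DESeq2 called 0 and 5 genes.

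**Figure D5:**
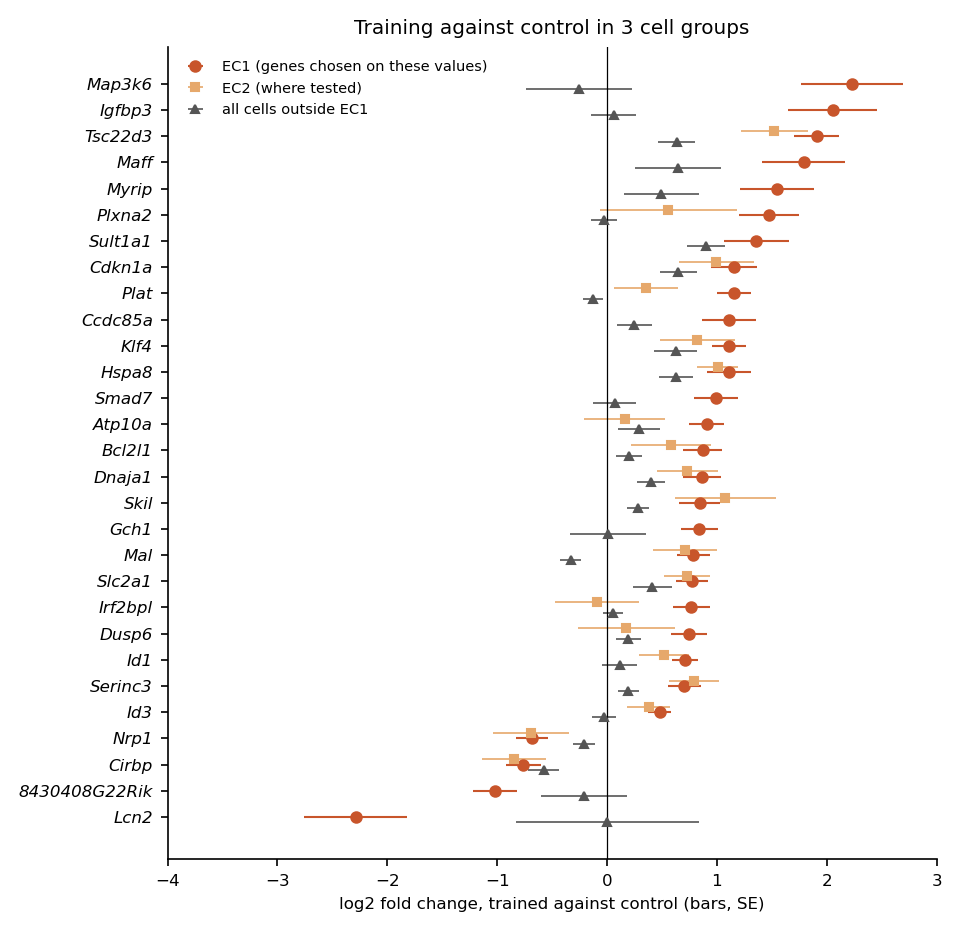
Log2 fold change of trained against control libraries for the 29 genes called in EC1, in EC1 (circles), EC2 (squares, where tested) and all cells outside EC1 (triangles), with bars for the SE. The genes were chosen on the EC1 values. Plat stands at 1.15 in EC1 and -0.13 outside EC1, and Tsc22d3 lies above 0 in all 3.

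Trained and occluded libraries were also set against each other, which compares enriched with lowered input but also mice kept short of water with mice that, as far as the methods say, were not. In EC1, 30 genes (0.346%) were higher after training and 5 (0.0577%) lower, 35 in all (0.404% of 8665, edgeR). Since the trained libraries are the same as above, the overlap is no independent result: 16 of the 25 genes raised against control also passed here. Klf4 (1.14 ± 0.16 (SE), adjusted p = 0.00072), Tsc22d3 (1.40 ± 0.20 (SE), adjusted p = 0.00072), Id1 (0.87 ± 0.12 (SE), adjusted p = 0.00072) and Slc2a1 (1.04 ± 0.15 (SE), adjusted p = 0.00072) were among them. Sgk1 passed here (1.04 ± 0.20 (SE), adjusted p = 0.0137), as did Timp3, an inhibitor of matrix proteases, at 292 and 339 CPM in control, 308 and 207 in occluded and 567 and 399 in trained libraries (0.92 ± 0.19 (SE), adjusted p = 0.0227). Angpt2 was higher in trained than in occluded libraries (2.14 ± 0.48 (SE), adjusted p = 0.0442), with trained libraries at the level of control. So was S100a5 (1.27 ± 0.24 (SE), adjusted p = 0.0157), whose log2 difference was 1.502 ± 0.38 outside EC1. Others were Dusp6, a phosphatase that limits ERK signals (1.25), Alas1, the first enzyme of heme synthesis (0.88), Nostrin, which binds nitric oxide synthase (0.75), Tmem252 (1.47), Tmc7 (1.52) and B4galt5 (1.27).

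Among the genes lower after training than after occlusion were Cirbp (-1.02 ± 0.16 (SE), adjusted p = 0.00217), which stood lowest in the trained libraries, Bloc1s1, a subunit of a complex for lysosome-related organelles (-1.18 ± 0.20 (SE), adjusted p = 0.00679), Plk2, a kinase of the stress response (-0.93 ± 0.19 (SE), adjusted p = 0.0218) and 8430408G22Rik (-1.10 ± 0.21 (SE), adjusted p = 0.0128). By list, 4 of 20 glucocorticoid-responsive genes were higher and none lower, with a median of 0.36, 1 of 14 heat shock genes with a median of 0.56, 2 of 15 BMP and TGF-beta genes with a median of 0.20 and 1 of 29 barrier transporters with a median of 0.05. The count was 5 without occluded replicate 2, 18 without occluded replicate 1 and 262 without trained replicate 2. Without trained replicate 1 it was 34, of which 14 were among the 35.

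The replicate 2 pools, given by the study as female, differed from the replicate 1 pools in 13 of 8169 genes tested (0.159%), 8 higher (0.0979%) and 5 lower (0.0612%). Xist, the RNA that silences an X chromosome, had 0 UMIs in the 3 replicate 1 libraries and 905, 812 and 627 in the replicate 2 libraries, and the Y-linked Ddx3y had 85, 52 and 107 UMIs and 0. The Y-linked Kdm5d, too low to be tested, had 14, 1 and 17 UMIs in the replicate 1 and 0, 1 and 0 in the replicate 2 libraries. Tsix, which lies antisense to Xist, and 5 ribosomal protein pseudogenes, whose reads may come from near-identical genes, were also higher, as was Cyp2e1, an enzyme of drug breakdown (0.79, adjusted p = 0.0364). Apln and S100a5 were lower (-2.59 and -0.70), besides Ddx3y, Eif2s3y and Uty. Of the 29 transporter and 13 junction genes tested, none passed. The count was 22 without occluded replicate 1, 7 without occluded replicate 2, 39 without trained replicate 1 and 40 without trained replicate 2.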

How the data were processed

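Droplet single-cell RNA was measured in 6 olfactory bulb libraries. The table held counts of UMIs for 18560 genes and 52549 barcodes, which the authors made from the reads with Cell Ranger 2.0.0 on mm10 (submitters' processing notes) and deposited without normalisation. The authors also deposited an annotation of 51426 cells from Seurat 2.2.1, with doublets removed, giving the cluster, the library and the mitochondrial fraction of each cell. Cells of the trained libraries carry name prefixes that are swapped against the library column of the annotation, and the library column was used. Normalised values of the same cells and an annotation of neurons were not used.

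EC1 cells were taken from the annotation, and their UMIs were summed per library. Sums were tested with the quasi-likelihood test of edgeR 4.0.16 (R 4.3.3; TMM factors, filterByExpr, Benjamini-Hochberg adjustment, threshold 0.05) over all 6 libraries, with group as the term. Differences of effects between EC1 and all other cells were interaction terms with the library as a block, and arterial and venous classes were compared with the library as a block. The prior degrees of freedom of that interaction fit were infinite, so, chosen after the data were seen, log2 CPM differences between EC1 and other cells were also taken within each library and compared between groups with limma 3.58.1 (prior count 1), and a robust prior was tried. DESeq2 1.42.0 was an alternative, as were other scalings, filters, cell sets and leaving out each library. The scripts were tested on simulated counts. Values were tabulated with Python 3.11.15, and shares were compared by exact permutation tests (SciPy 1.17.1). Promoters and positions came from RefSeq tables for GRCm38.p6, which hold 129 of the 133 genes named by rule.

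The cluster, the gene lists and the tests were chosen with earlier results of these data known, and the study's own EC1 marker list was chosen on these cells. Named genes were Slco1c1, Cldn5, the first 10 genes of that list, sex-linked genes, the 10 largest passing changes of each comparison (where fewer than 3 passed, the 5 smallest p) and up to 4 passing members of each list, otherwise the 2 with most UMIs. Other genes in the text were chosen after their values were seen, and a few genes that the rule names are not reported here. Intervals, limits from a count of 0 and p-values of 2 pools a group cover counting error and the spread between pools only, except those of the edgeR interaction fit, which hold no gene's own spread between pools.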

Additional observations from a re-analysis of the deposited data

Results flagged for a closer look

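Within EC1, the log2 difference between arterial and venous cells had 1 library of 6 that stood apart from the others for Nrp1 (-2.16), Gm9844 (-8.47), Apoe (-0.68) and Ctla2a (-2.54). Chance alone sets such a value apart in about 1 of 20 groups.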

How the results depend on the processing

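The number of genes that passed depended on the processing. For occlusion against control (2 genes) the count was 0 with DESeq2, 10 with no filter on low counts, 4 with the libraries of the 2 groups only, 0 among cells with at least 1000 UMIs, 1 in EC1 and EC2 together and 0 to 19 when 1 library was left out. For training against control (29) it was 6, 85, 3 and 5 under the first 4 of these settings and 1 to 224 without 1 library. For training against occlusion (35) it was 16, 109, 13 and 16, then 57 in EC1 and EC2 together and 5 to 262 without 1 library. For replicate 2 against replicate 1 pools (13) it was 8 with DESeq2, 43 with no filter and 7 to 40 without 1 library. For arterial against venous cells (428) it was 232 with DESeq2 and 350 to 379 without 1 library. For the difference of effects between EC1 and other cells by edgeR, the count was 0 with DESeq2 and 0 with EC2 as the other cells for occlusion (8), with 4 to 15 without 1 library, and 5 and 0 for training (46), with 21 to 87. A robust prior gave 2 higher and 2 lower genes for occlusion and 36 higher and 7 lower for training. Limma on differences within libraries gave 0 and 0, and both settings were chosen after the data were seen. Where a library was left out, its group had 1 library, which was assumed to vary like the other groups. With EC2 as the other cells, edgeR's interaction value changed sign for 6 values. For occlusion they were Hbb-bs (-2.09 ± 0.63, SE), Hba-a2 (-2.25 ± 0.71) and Hba-a1 (-2.23 ± 0.75). For training they were Smad7 (-0.50 ± 0.69), Mgp (-0.21 ± 0.45) and Ptgds (0.19 ± 0.29), each within 1 SE of 0. None passed in that edgeR fit (adjusted p of 0.851 or more), and the cause was not tested. Of 1821 values of named genes under all alternatives, 1399 kept their side of the threshold, 401 no longer passed, 15 newly passed and 6 changed sign without passing. The number of EC1 cells passed under none of the alternatives run.

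By the study's account and the sex-linked genes, a replicate number marks the sex of the pools in all 3 groups. The sources used here do not say whether libraries of different groups share animals. Deviations of same-numbered libraries correlated at 0.153, 0.085 and 0.040 between groups. With the replicate number as a block, 4 genes passed for occlusion, 34 for training and 40 for training against occlusion, and 27 of the 29 and 34 of the 35 genes kept their call. The log2 difference in EC1 cell number was then -0.10, -0.09 and 0.01.

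Depth limits low genes: EC1 cells of a library held 611879 to 905535 UMIs, and 8665 of 18560 genes passed the filter.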
